A study of Rattus norvegicus with 24 samples.

Results

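The dependence of the DAAO response on the heart chamber was measured as a contrast of contrasts. For each gene, the DAAO minus CTL difference in the left ventricle (LV) was set against the same difference in the right ventricle (RV). All 24 libraries of the series entered, from 12 rats. Of 32883 gene identifiers, the 13344 whose mean deposited value reached 10 in the LV table and also in the RV table were tested. The 19539 left out included 8476 that were 0 in every library, 697 that reached the minimum only in LV and 145 that reached it only in RV. The smaller table mean was 10.0018 for the last gene kept and 9.998 for the first gene left out.

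The rats were of strain WI, with 6 labelled CTL (C_7000, C_7005, C_7118, C_7120, C_7121 and C_7123) and 6 labelled DAAO (D_7135, D_7137, D_7138, D_7142, D_7143 and D_7146). Each number gave 1 library of the left ventricle with septum and 1 of the right ventricular free wall. The labels give no sex, age, dose, time, gene vector or promoter, and what the CTL rats received is not given in the sources used here. Every DAAO number is above every CTL number, so the group and anything that goes with the numbering cannot be told apart. No label says that numbers are separate rats, so p-values measure the spread between these samples. Reads per library ranged from 15363539 to 23263897 in LV and from 13280705 to 18777633 in RV.

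The label DAAO is read here as D-amino acid oxidase. This enzyme oxidises D-amino acids in a reaction that yields hydrogen peroxide, and researchers use it to impose oxidative stress on chosen cells. The left ventricle pumps into the systemic circulation at high pressure, and the thinner right ventricular free wall pumps into the lungs at low pressure. Both chambers hold cardiomyocytes, fibroblasts, endothelial cells and leukocytes, and each has some genes of its own that trace back to separate embryonic heart fields. The tables hold Ensembl gene numbers with no gene names, and the reference used here paired 0 of them with a symbol. For that reason the chamber labels were not checked against marker genes, no pathway was counted, and most genes below are given by their values alone. In whole tissue, fewer cells of a type and less RNA per cell cannot be told apart.

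The DAAO effect differed between LV and RV for 1072 of 13344 genes, 8.03% of those tested (limma, animal number as a block, Benjamini-Hochberg adjusted p under 0.05). A positive difference means that DAAO moved the gene further up, or less far down, in LV than in RV. It was positive for 569 genes (4.26%) and negative for 503 (3.77%). The median size of the difference among the 1072 was 0.611 on the log2(value + 1) scale. A difference of 2-fold or more was found for 121 of them and for 232 of the 12272 genes not called. Without the animal block the count of called genes was 391, of which 388 were among the 1072. Leaving out CTL animals C_7118, C_7120 and C_7123 together, whose LV and RV libraries deviated least alike, left 340. Leaving out 1 animal at a time gave 413 (without D_7146) to 1352. With libraries scaled to equal totals the split was 365 positive and 655 negative.

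The chambers taken one at a time gave far more calls than the difference did. In LV, DAAO changed 5142 genes (38.5%), 2406 up (18.0%) and 2736 down (20.5%). RV held 3577 changed genes (26.8%), 1687 up (12.6%) and 1890 down (14.2%). Equal totals gave 4265 up and 1592 down in LV, and 3810 up and 931 down in RV, with the median effect of all genes at 0.217 and 0.267 log2 in place of 0.0165 and 0.0238. Exactly 1 chamber was past the threshold for 4069 genes, but the difference itself was past it for only 791 of these, 19.4%. That share was 13.8% of the 2817 genes called in LV and not RV, and 32% of the 1252 called in RV and not LV. For the other genes called in 1 chamber, a dependence on the chamber was not shown.

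**Figure D1:**
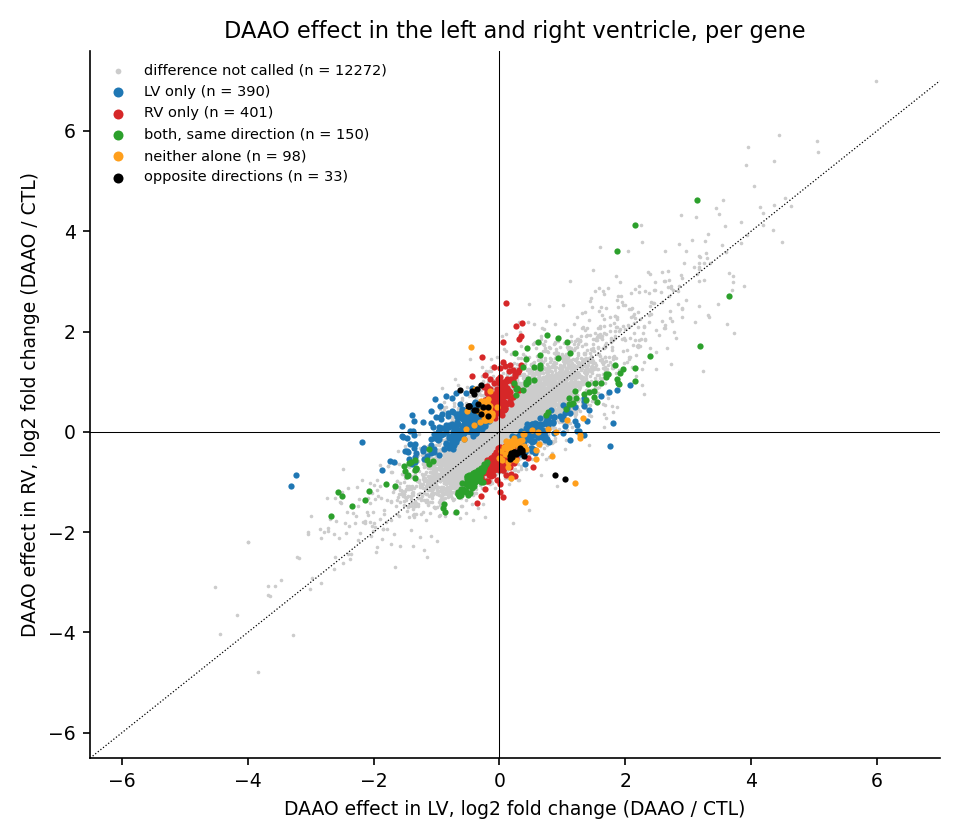
DAAO effect in LV (horizontal) and in RV (vertical), each as log2 fold change of value + 1, with 1 point per tested gene. Grey points are the genes whose effects did not differ past the threshold, and colours mark the classes of the 1072 that did: 390 changed in LV only, 401 in RV only, 33 in opposite directions, 150 in the same direction and 98 in neither chamber alone.

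The 1072 genes fell into 5 classes by which chamber was past the threshold on its own. LV alone was past it for 390 genes and RV alone for 401. In 33 genes both chambers changed, in opposite directions. Another 150 changed in the same direction by different amounts, and 98 passed in neither chamber alone. Without the animal block the first 4 classes held 146, 192, 32 and 17 genes. Membership also depended on the scaling: with equal library totals, 850 of the 1072 were called, and 207 of the 390 LV only, 171 of the 401 RV only and 87 of the 150 same-direction genes were in the same class. The effects in LV and RV had opposite signs for 577 of the 1072, or 53.8%, against 24.9% of all genes tested. Opposite signs widen the difference on which these genes were called, so this share is a description.

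The share of genes called differed with abundance. At a mean level of 10 to 100 the difference was called for 73 of 3344 genes (2.18%), with a median size of 1.05 log2. At 100 to 1000 it was called for 585 of 7461 (7.84%), with a median size of 0.623. Between 1000 and 10000 it was called for 397 of 2392 (16.6%), with a median size of 0.559. Of the 147 genes at 10000 or more, 17 were called (11.6%). Called differences thus had their largest median size in the lowest genes. These sizes cover only genes past the threshold, so they do not describe all genes of a level. The direction moved with abundance too: 25 of the 73 low genes were positive, against 260 of the 397 between 1000 and 10000. These directions come from the deposited scaling.

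Genes that responded in LV only included 169 that rose there and 221 that fell. The risers had a median effect of 0.52 in LV and -0.06 in RV, and the fallers -0.60 in LV and 0.13 in RV. For 219 of the 390, the 95% interval of the RV effect lay within 1.5-fold of no change. For the other genes of this class the RV interval reached past 1.5-fold, so an RV response of that size could not be told from none.

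ENSRNOG00000059479 had the largest negative difference among genes whose mean reached 50 in both tables. In LV its normalised read count was 148 to 401 in CTL (median 336) and 18.7 to 41.2 in DAAO (median 31.9). In RV it was 17.8 to 146 in CTL (median 80.6) and 11.2 to 117 in DAAO (median 42.2). All 6 DAAO hearts lay below all CTL hearts in LV, while the RV ranges overlapped. It fell by 3.23 log2 in LV (SE 0.25, limma adjusted p = 5.51e-06). The RV effect was -0.86 (SE 0.55, 95% interval -2.03 to 0.31, adjusted p = 0.254), and the difference was -2.37 (SE 0.50, adjusted p = 0.0114). LV minus RV levels, here and below, have the median of all tested genes set to 0 in each animal. Before this the median was 0.274 log2 in CTL and 0.269 in DAAO, so these levels are lower than the printed counts give. In CTL the LV level of ENSRNOG00000059479 exceeded its RV level by 1.70 ± 1.27 log2 (SD, n = 6). In DAAO its LV minus RV level was -0.67 ± 0.76. C_7118 was at 4.16, and the other CTL rats lay between 0.79 (C_7005) and 1.92 (C_7123). Without C_7118 the RV effect was -1.26 (limma adjusted p = 0.0721) and the difference -1.88 (adjusted p = 0.00915). The RV effect stayed uncalled under 28 of 28 alternatives, with a lowest adjusted p of 0.0516 (limma with weights per library).

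ENSRNOG00000015972 had the next largest negative difference and nearly the same levels. In LV it was 151 to 400 in CTL (median 336) and 15.9 to 48.3 in DAAO (median 28.9). The RV values were 35.5 to 240 in CTL (median 80.8) and 24.7 to 87.6 in DAAO (median 38.6). DAAO hearts were again apart from CTL in LV and overlapped them in RV. The LV effect was -3.31 (SE 0.28, adjusted p = 7.19e-06) and the difference -2.23 (SE 0.40, adjusted p = 0.00733). Its RV effect of -1.08 had an adjusted p of 0.08 with an interval of -2.02 to -0.15, and it passed the threshold under 4 of 28 alternative settings. Its placing among LV only genes is therefore not firm. Mean LV levels in CTL were 304 for ENSRNOG00000059479 and 304 for ENSRNOG00000015972, and whether the identifiers share reads was not tested.

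Other LV only genes moved at high abundance. The genes described without an identifier here and below were chosen after their values were seen, as the most abundant of a class or the one with the largest difference. Only genes with a mean of at least 50 in both tables were eligible, and those given by identifier were left out. The most abundant LV riser went from 14800 to 26500 in CTL (median 17900) to 27800 to 38000 in DAAO (median 33300). Its RV values overlapped, at 25000 to 43200 in CTL and 32000 to 42500 in DAAO. With the median of all genes set to 0, LV was below RV in 6 of 6 animals of each group. The gap (LV minus RV) was -1.06 ± 0.25 in CTL and -0.42 ± 0.09 in DAAO. This gene's LV effect was 0.78 (SE 0.15, limma adjusted p = 0.00139) and its difference 0.65 (SE 0.14, adjusted p = 0.0114). The LV riser with the largest difference went from 473 to 867 in CTL to 1160 to 2050 in DAAO, with an LV effect of 1.35 and an RV effect of -0.05.

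Among LV fallers, the most abundant gene had a smaller change. In LV it was 24300 to 38100 in CTL (median 32400) and 17800 to 28200 in DAAO (median 23200), and the ranges overlapped. RV values were 12900 to 25600 in CTL and 18200 to 24800 in DAAO. Its LV effect was -0.47 (SE 0.15, limma adjusted p = 0.0218) and its difference -0.66 (SE 0.19, adjusted p = 0.045), near the threshold.

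**Figure D2:**
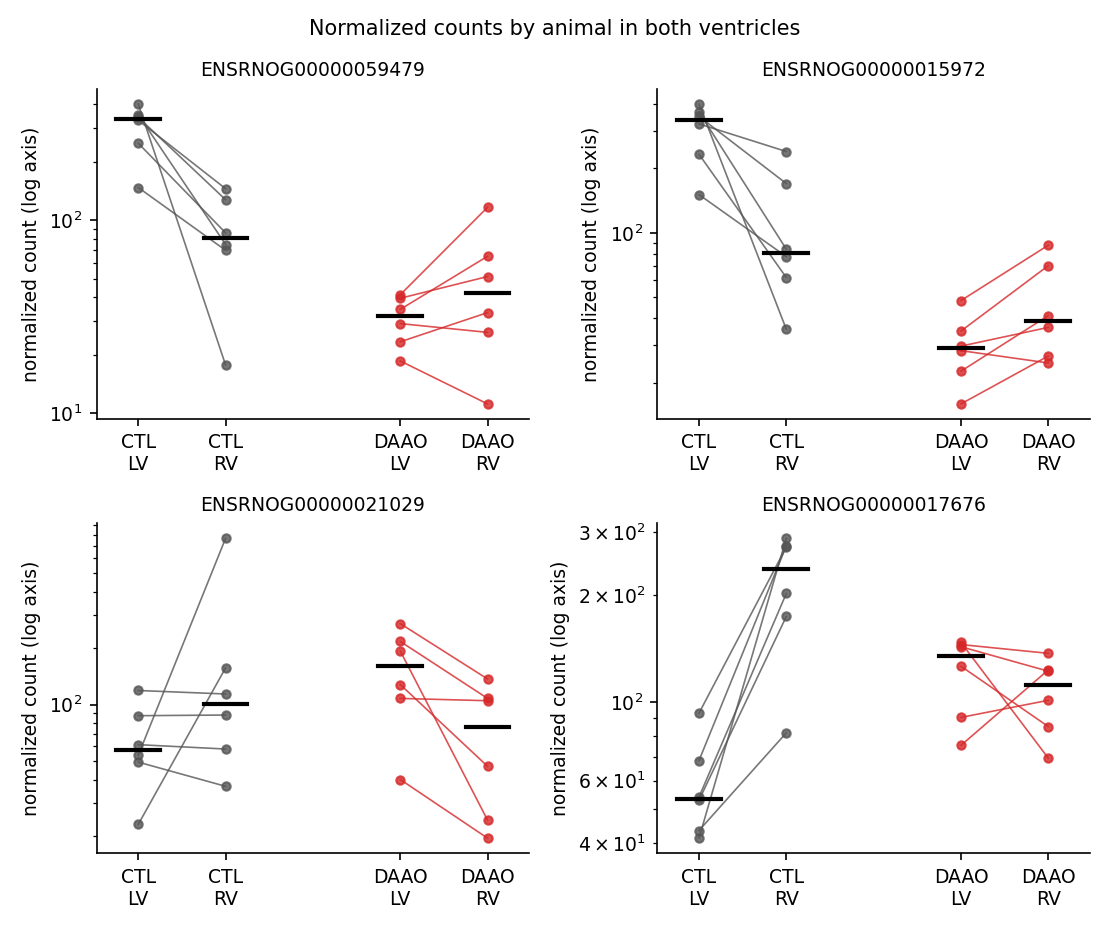
Normalised read count (log axis) of the 4 genes given by identifier, by chamber and group, with 1 point per animal and a bar at the group median. ENSRNOG00000059479 and ENSRNOG00000015972 drop in LV of all 6 DAAO rats, and ENSRNOG00000017676 moves up in LV and down in RV. The RV point of C_7123 at 768 stands above the other CTL points of ENSRNOG00000021029.

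Genes that responded in RV only included 180 that rose there and 221 that fell. The risers had a median effect of 0.65 in RV and 0.01 in LV, and the fallers -0.55 in RV and 0.01 in LV. For 377 of the 401, the 95% interval of the LV effect lay within 1.5-fold of no change. The LV intervals were narrower than those of RV over all genes too, within 1.5-fold for 6811 against 4853 of the 13344.

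The RV riser with the largest difference was low in RV of CTL rats and high in LV. Its RV values were 16.6 to 80.7 in CTL (median 49.0) and 88.2 to 149 in DAAO (median 125), with no overlap. In LV they were 158 to 234 in CTL (median 198) and 129 to 217 in DAAO (median 161). The RV effect was 1.49 (SE 0.31, limma adjusted p = 0.00378), the LV effect -0.28 (adjusted p = 0.11) and the difference -1.77 (SE 0.33, adjusted p = 0.00789). Its LV minus RV level was 1.95 ± 0.88 over the CTL rats and 0.18 ± 0.41 over the DAAO rats (SD, n = 6 each), so the level in RV came close to that in LV.

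The most abundant RV riser had the same form with a smaller change. RV values were 4750 to 6800 in CTL (median 5360) and 7100 to 11000 in DAAO (median 8360), without overlap. LV values were 12700 to 17100 in CTL (median 16500) and 13900 to 19500 in DAAO (median 16900). The RV effect was 0.60 (SE 0.13, limma adjusted p = 0.00547), and the interval of the LV effect of 0.08 ran from -0.16 to 0.31. LV stayed above RV in 6 of 6 animals of each group.

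Of the 221 RV fallers, 157 had a higher RV than LV level in 6 of 6 CTL animals (71.0%, against 21.6% of all tested genes). The CTL libraries enter both this level and the effects that define the class, so the share is a description. The faller with the largest difference was 1090 to 1920 in RV of CTL rats (median 1290) and 623 to 1470 in DAAO (median 740), where D_7138 at 1470 was the only DAAO value inside the CTL range. In LV it was 357 to 616 in CTL (median 435) and 355 to 906 in DAAO (median 762). Its RV effect was -0.71 (limma adjusted p = 0.0144) and its LV effect 0.53 (adjusted p = 0.0838), with a difference of 1.24 (SE 0.27, adjusted p = 0.0124). The most abundant RV faller was 25400 to 33500 in CTL and 14000 to 29000 in DAAO, with overlapping ranges and an LV effect of 0.07.

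**Figure D3:**
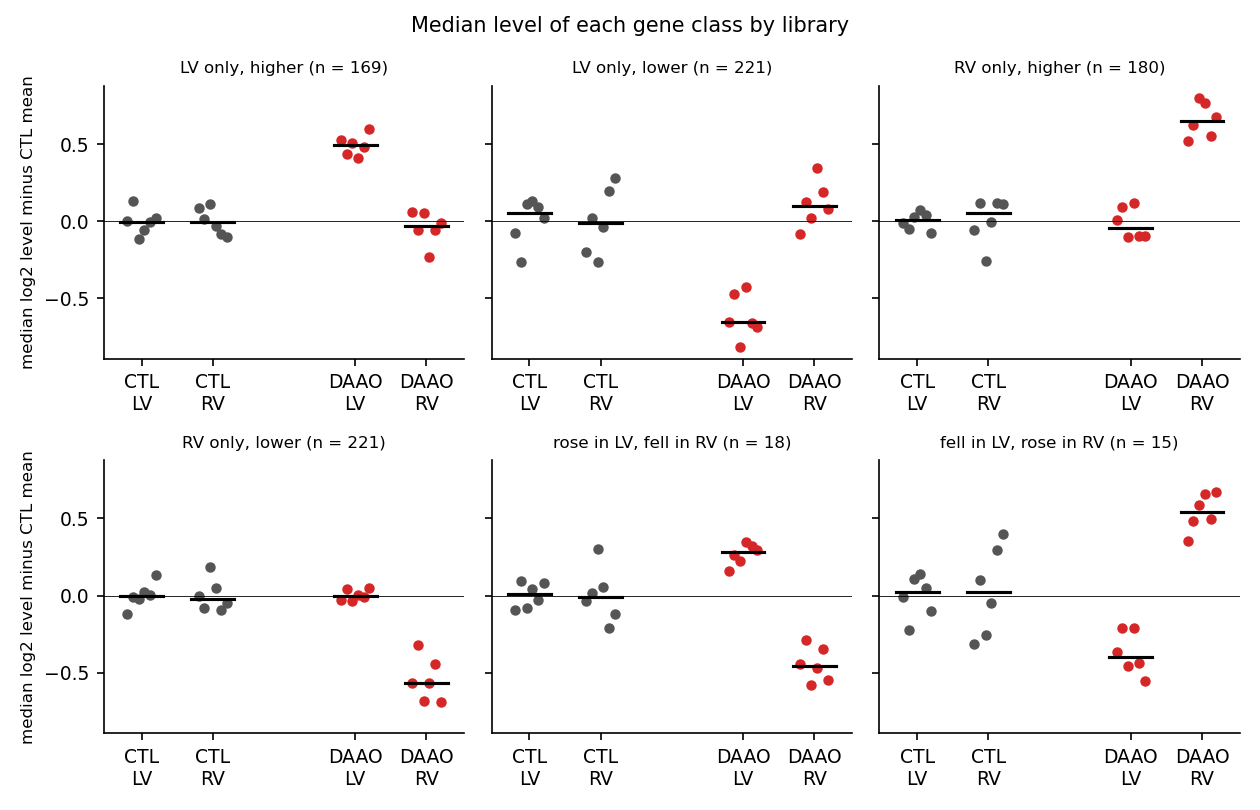
Median log2 level over the genes of each class in each animal, relative to the CTL mean of the same chamber, for LV and RV. The classes were defined by these same effects, so the separation of groups is a description. In RV only risers the DAAO animals sit between 0.519 and 0.797 in RV and between -0.105 and 0.119 in LV.

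Medians over the genes of a class were compared between animals. The median over the 180 RV only risers was 0.519 (D_7135) to 0.797 (D_7138) in RV of the DAAO rats, relative to the CTL mean, and -0.105 to 0.119 in their LV. The 169 LV only risers had medians of 0.414 to 0.597 in LV of DAAO rats and -0.232 to 0.058 in RV. The 221 LV only fallers were at -0.812 to -0.427 in LV of DAAO rats, below the CTL range of -0.266 (C_7005) to 0.131. In RV their medians ran from -0.262 (C_7118) to 0.284 (C_7123) in CTL and from -0.080 to 0.346 (D_7142) in DAAO, with overlap. These medians follow from how the classes were chosen and carry no test.

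Opposite responses were few. They were 33 of the 2325 genes called in both chambers, and the difference was past the threshold for all 33. In 18 of them DAAO raised LV and lowered RV, with median effects of 0.28 and -0.42. In the other 15 it lowered LV and raised RV, with medians of -0.36 and 0.51. Sizes ranged from 0.17 to 1.04 in LV and from 0.32 to 0.94 in RV. The LV means of these genes were 90.0 to 9250. The class holds 16 genes with no filter on low values and 104 with weights per library, and 32 without the animal block. With equal library totals it holds 46, of which only 5 are among the 33, so which genes are opposite depends on the scaling.

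ENSRNOG00000017676 had the largest difference among the 33. In LV it was 41.3 to 92.9 in CTL (median 53.3) and 75.4 to 147 in DAAO (median 135). In RV it was 81.8 to 289 in CTL (median 238) and 69.4 to 137 in DAAO (median 111). The ranges overlapped in each chamber, yet the 6 LV minus RV differences of the groups did not. The LV effect was 1.04 (SE 0.22, limma adjusted p = 0.00286) and the RV effect -0.94 (SE 0.28, adjusted p = 0.0255). The RV call was lost under 5 of 28 alternatives, with a highest adjusted p of 0.186. Among them were leaving out C_7118, C_7121 or D_7138 (limma adjusted p of 0.0584, 0.0586 and 0.0559). Another was equal library totals, with an RV effect of -0.69 (limma adjusted p = 0.0758), so this gene was not called opposite under that scaling. The LV call was lost under 1, leaving out C_7118, C_7120 and C_7123 together (adjusted p = 0.0712). The difference was 1.98 (SE 0.31, adjusted p = 0.00496). The LV minus RV level was -2.07 ± 0.62 in the 6 CTL rats and -0.09 ± 0.61 in the 6 DAAO rats (SD).

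The most abundant of the genes that rose in LV and fell in RV showed a smaller change of tight values. LV values were 4510 to 5020 in CTL and 5700 to 6340 in DAAO, with no overlap. RV values were 8920 to 12700 in CTL (median 9980) and 7360 to 10400 in DAAO (median 7900). Its effects were 0.33 in LV (SE 0.05, limma adjusted p = 0.000351) and -0.33 in RV (SE 0.11, adjusted p = 0.0472). RV remained the higher chamber in 6 of 6 animals of each group, with an LV minus RV level of -1.36 in CTL and -0.71 in DAAO.

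The most abundant gene that fell in LV and rose in RV was an LV gene in CTL rats. It was 8330 to 12300 in LV of CTL (median 10700) and 6360 to 9580 in DAAO (median 7840). In RV it was 1050 to 3600 in CTL (median 2670) and 3360 to 4980 in DAAO (median 4190). The lowest RV value was that of C_7118. The effects were -0.44 in LV (limma adjusted p = 0.0183) and 0.82 in RV (adjusted p = 0.0233), and LV stayed above RV in 6 of 6 DAAO animals.

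Among the 150 genes that moved the same way in both chambers, 59 rose and 91 fell. Of those that rose, 32 rose more in LV (median 1.54 in LV and 0.96 in RV) and 27 rose more in RV (0.54 and 1.32). Of those that fell, 23 fell more in LV (-1.45 and -0.78) and 68 fell more in RV (-0.44 and -0.95). Among those with a mean of at least 50 in both tables, 1 gene had the widest gap. It was at 16.6 to 166 in RV of CTL rats and 303 to 2820 in RV of DAAO rats. Its LV values were 114 to 425 and 555 to 1370, and its effects 4.13 in RV (SE 0.59, limma adjusted p = 0.000582) and 2.15 in LV (SE 0.30, adjusted p = 0.000171). The RV increase was the larger by 1.98 log2 (SE 0.52, adjusted p = 0.0309). Without the animal block this class held 17 genes.

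Of the 98 genes called in neither chamber alone, 61 had a positive and 37 a negative difference. ENSRNOG00000021029, with the largest positive difference at a mean of at least 50, was among them. Its LV values were 23.1 to 119 in CTL (median 57.6) and 40.0 to 270 in DAAO (median 160). In RV they were 36.8 to 768 in CTL (median 101) and 19.5 to 137 in DAAO (median 76.1). C_7123 at 768 was far above the next CTL value of 157, and all ranges overlapped. The difference of 2.23 (SE 0.66, limma adjusted p = 0.0487) was past the threshold by little. Without C_7123 it was 1.66 with an adjusted p of 0.0573, without the animal block the adjusted p was 0.166, and the call was lost under 17 of 28 alternatives.

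The same genes were described by their chamber levels in CTL rats. The tables were normalised separately, so the LV minus RV level was set to a median of 0 over all genes in each animal, and levels across chambers are relative to that. A gene was called LV-biased where all 6 animals had LV above RV and the mean gap was 2-fold or more, and RV-biased for the reverse. In CTL, 773 genes were LV-biased (5.79%) and 407 RV-biased (3.05%). In DAAO, 402 were LV-biased (3.01%) and 127 RV-biased (0.952%). The CTL libraries enter both the gap and the DAAO effect, so what follows describes the 4 groups together and is not a test.

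The difference was called for 210 of the 773 LV-biased genes (27.2%), and in 209 of the 210 it was negative. It was called for 104 of the 407 RV-biased genes (25.6%), and all 104 were positive. Among the 12164 genes with neither bias it was called for 758 (6.23%). Thus 758 of the 1072 chamber-dependent genes had no 2-fold bias in CTL, against 12164 of all 13344 tested, so bias was more common among them. LV was the higher chamber in all 6 CTL animals for 476 of the 1072 (44.4%, against 22.0% of all tested genes). RV was the higher in all 6 for 421 (39.3%, against 21.6%). Among the 773 LV-biased genes RV rose with DAAO in 210 (27.2%, against 12.6% of all genes tested) and fell in 18 (2.33%, against 14.2%). LV fell in 230 of them (29.8%, against 20.5%) and rose in 83 (10.7%, against 18.0%). Among the 407 RV-biased genes RV fell in 162 (39.8%, against 14.2%) and rose in 10 (2.46%, against 12.6%). LV rose in 79 of these (19.4%, against 18.0%) and fell in 78 (19.2%, against 20.5%), shares near those of all genes. These shares come from the deposited scaling.

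**Figure D4:**
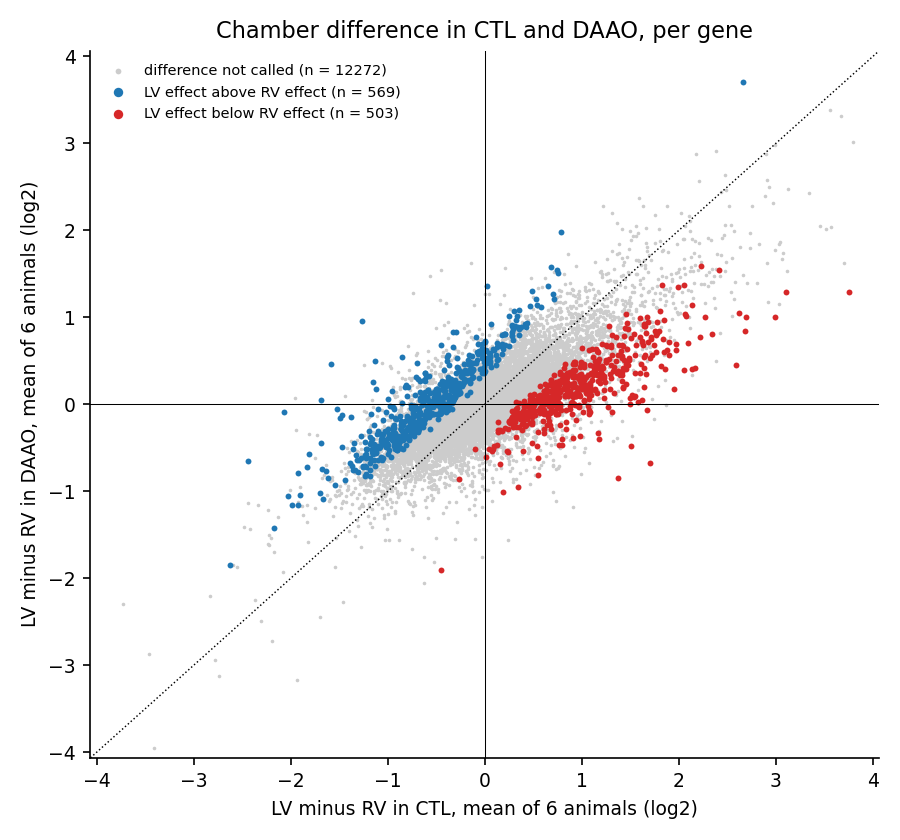
Mean LV minus RV level per gene in CTL (horizontal) and in DAAO (vertical), in log2 with the median of all genes at 0, for the genes whose DAAO effect differed between chambers and, in grey, the other tested genes. The dashed line marks equal gaps. Coloured points lie closer to 0 on the vertical than on the horizontal axis for 911 of the 1072.

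The gap between chambers was smaller in DAAO than in CTL for 911 of the 1072 genes (85.0%), against 8747 of all 13344 (65.6%). It was smaller for 478 of 503 genes with a negative difference (95%) and for 433 of 569 with a positive one (76.1%). Median LV minus RV levels went from 0.92 in CTL to 0.17 in DAAO for negative genes, and from -0.61 to -0.02 for positive genes. LV only fallers went from 0.87 to 0.12 and RV only risers from 0.98 to 0.24. LV only risers went from -0.64 to -0.01 and RV only fallers from -0.57 to 0.01. In the opposite class, the genes that fell in LV and rose in RV went from 1.30 to 0.38, and those that rose in LV and fell in RV from -0.75 to -0.03. All these medians moved toward 0, and they come from the values on which the genes were called.

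Of the 1072, 210 were LV-biased and 104 RV-biased in CTL, and 17 of the 210 and 8 of the 104 were still so in DAAO. Of the 773 genes LV-biased in CTL 285 were still so in DAAO (36.9%), and of the 407 RV-biased genes 75 (18.4%). The sign of the mean gap turned for 355 of the 1072 (33.1%), against 2974 of all tested genes (22.3%). Overlap between the groups was counted on LV minus RV differences without the median of all tested genes removed in each animal. The 6 DAAO differences lay entirely apart from the 6 CTL differences for 420 of the 1072 (39.2%) and for 27 of the 33 opposite genes (81.8%). Over all genes that happened for 481 (3.6%). The 1072 were called on the LV minus RV values of these same animals, so the shares among them are a description and not a test.

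**Figure D5:**
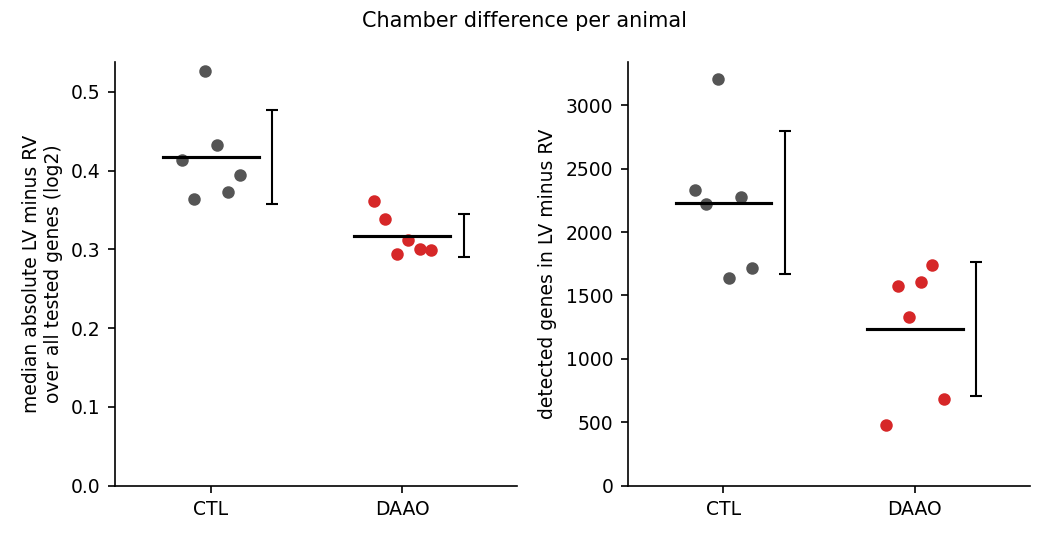
Median size of the LV minus RV difference over the 13344 tested genes, 1 point per animal, in log2, for CTL and DAAO. The 6 DAAO animals sit at 0.294 to 0.362, all below the 6 CTL animals at 0.364 to 0.527.

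Over all 13344 genes, and with no gene chosen for its response, the chambers of a DAAO heart were closer to each other than those of a CTL heart. The median size of the LV minus RV difference averaged 0.417 ± 0.059 log2 over the CTL rats and 0.318 ± 0.027 over the DAAO rats (SD, n = 6 each). The DAAO values ran from 0.294 to 0.362 and the CTL values from 0.364 (C_7005) to 0.527 (C_7118), with no overlap. The difference of -0.0995 had an exact permutation p of 0.00216, two-sided, the smallest that 924 assignments allow, and 0.013 after Benjamini-Hochberg adjustment over 6 library measures. Without C_7118 it was -0.0776 (exact p = 0.00433), and without C_7118, C_7120 and C_7123 together -0.0655 (exact p = 0.0238). These p-values are unadjusted, and each is the smallest that the remaining animals allow. Among the 2162 genes with a mean of at least 1000, 4 of 6 DAAO animals were below all CTL animals. The gap between group means, which uses no pairing, was 0.355 in CTL and 0.257 in DAAO.

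A library measure moved with this result. Mean detected genes per library were 18282 in CTL and 18393 in DAAO for LV, and 16051 and 17157 for RV. LV libraries held more detected genes than RV libraries of the same animal, by 2231 ± 563 over the CTL rats and 1236 ± 527 over the DAAO rats (SD, n = 6 each). That difference of -995.3 genes had an exact permutation p of 0.00649, adjusted p = 0.0195 over the 6 measures. At equal reads per library the exact p was 0.013, and counting only genes with at least 5 reads it was 0.0606. Neither the LV minus RV reads (exact p = 0.318) nor the LV minus RV share of reads in the 10 most abundant genes (exact p = 0.87) passed the threshold. Within each chamber that share was lower in DAAO. Its mean was 26.8% in CTL and 21.8% in DAAO for LV, and 28.4% and 23.3% for RV. The ranges overlapped, and the change within a chamber was not tested. The part of detection in the smaller chamber gap was not tested beyond the abundance limits above.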

How the data were processed

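Rat heart RNA was sequenced in LV with septum and RV free wall. The submitters' processing notes name the aligner STAR 2.7.0a, FastQC, DESeq2 1.26.0 and the build Rnor_6.0. They name neither counter nor annotation nor strand setting, so values of overlapping or nearly identical genes are uncertain. The authors deposited 1 table of normalised counts per chamber, a signal in which each library's gene counts were divided by 1 size factor. Reads were recovered by dividing by the smallest value of a library, of which 100% of values were whole multiples (tolerance 1e-06). No library repeated another of its group: the lowest chi-square per degree of freedom was 12.6.

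The members and lists were chosen with earlier results of these data known. Values were tested as log2(value + 1) with limma 3.58.1 (R 4.3.3), with a trend in the variance, animal number as a block and the interaction of group and chamber, two-sided. LV and RV effects came from separate fits within each table on the same 13344 genes. On this scale the change of low genes is understated. Alternatives included quasi-likelihood tests in edgeR 4.0.16 and Wald tests in DESeq2 1.42.0, on recovered reads. DESeq2 left the adjusted p undefined for 15 genes in LV and 23 in RV, and these stayed undefined. The fits were tested on simulated data.

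Numbers were taken as animals because each occurs in both chambers and in 1 group. For the pairing check, deviations from the group mean were correlated across genes between same-numbered libraries. The r was 0.057 to 0.788 (median 0.55), and 9 of 12 numbers matched their own partner best. The exceptions were C_7118 (0.06), C_7120 (0.057) and C_7123 (0.254). LV of C_7118 matched RV of C_7123 best (r = 0.499), and LV of C_7120 matched RV of C_7118 best (0.286). LV of C_7123 matched RV of C_7120 best (0.264). Each thus had another of these numbers as its best partner, and whether those are paired wrongly was not tested. The calls of the difference between chambers and the gaps per animal use this pairing.

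Genes were named by rule: without symbols, the 2 identifiers with the largest positive and the 2 with the largest negative difference whose mean reached 50 in both tables. The RefSeq table (GRCr8, 47357 genes) matched 0 of 32883 identifiers, so the pathway and cell type lists were not run and no sequence is shown.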

Additional observations from a re-analysis of the deposited data

Results flagged for a closer look

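The DAAO effect differed between the chambers for 1072 genes by the interaction test of limma. The 4 genes given by identifier are among them, with an LV minus RV difference of effects of -2.37 for ENSRNOG00000059479, -2.23 for ENSRNOG00000015972, 2.23 for ENSRNOG00000021029 and 1.98 for ENSRNOG00000017676 (log2). Of 28 groups of 6 values, 16 of these genes and 12 of library measures, 1 held a value far from the rest: ENSRNOG00000021029 was at 768 in RV of C_7123. Chance gives such a value in about 1 of 20 groups.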

How the results depend on the processing

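No effect of an identified gene changed sign under the alternatives run, but with equal library totals the majority direction of the calls turned. The difference between chambers was called for 391 genes with no replicate block, that is without the pairing by animal number, 1836 with weights per library and 340 without CTL animals C_7118, C_7120 and C_7123, for which LV fell to 2199 and RV to 1004. LV only genes numbered 146 with no replicate block, 626 with weights, 104 without the 3 animals and 83 at an adjusted p of 0.01. RV only genes numbered 192 with no replicate block, 244 without CTL animals C_7000 and C_7005, 96 without the 3 animals and 75 at 0.01. Opposite genes numbered 16 with no filter, 104 with weights, 54 with DESeq2, 2 without the 3 animals and 1 at 0.01. Same-direction genes numbered 17 with no replicate block, 84 with no filter, 387 with weights, 254 with DESeq2, 6 without the 3 animals and 11 at 0.01. The cause was not tested. Leaving out 1 animal at a time gave 413 to 1352 genes for the difference, 4349 to 6329 for LV, 2591 to 4247 for RV, 171 to 540 LV only, 153 to 578 RV only, 10 to 56 opposite and 39 to 199 in the same direction. The difference was called for 537 genes without C_7000, 714 without C_7118, 696 without C_7120, 580 without D_7138, 465 without D_7142 and 413 without D_7146, with fewer samples in each. edgeR called 1073 genes, 1008 of them shared, and DESeq2 1499, which held all 1072. Scaling each library to equal totals gave 1020 genes, 850 of them among the 1072, with 365 positive and 655 negative. It gave 4265 up and 1592 down in LV and 3810 up and 931 down in RV, with the median effect of all genes at 0.217 in LV and 0.267 in RV. Of the opposite genes 5 of 33 were shared. The count of genes with at least 5 reads took the detected-gene difference to -341.2 (exact permutation p = 0.0606). The smaller chamber gap in DAAO was past the threshold in 17 of 17 alternatives, at -0.0655 to -0.114 (unadjusted exact permutation p of at most 0.0238). Among the lowest genes, at a mean of 10 to 100, 2.18% were called.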
